A study of Rattus norvegicus with 8 samples.

Results

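The cholesterol synthesis enzymes described here are Hmgcs1, Idi1, Fdps, Fdft1, Sqle, Lss, Cyp51 and Dhcr7, chosen by gene symbol, and 7 of these 8 symbols were found among the 31699 rows of the deposited RNA-seq table. Fdps was not found under its own symbol. AFCs (annulus fibrosus cells, from the outer ring of the intervertebral disc) of Sprague Dawley rats were infected with a control lentivirus built from the pLVX-shRNA-Puro vector (Lv-Ctrl) or with a vector of the same kind whose short hairpin RNA targets Piezo1 (Lv-Piezo1). Infection was at a multiplicity of infection of 20 for 24 h. Both groups were then subjected to CMS (cyclic mechanical stretch) with 20% elongation at 0.5 Hz for 36 h, so no unstretched sample is among them, and 4 samples of each group were sequenced. AFCs came from pools of 8 rats per isolation and were used at the third passage, and the study names the 4 samples of each group as biological repeats in vitro, so p-values measure the spread between these samples. In the study's methods, differently treated AFCs of the same isolation form an independent repeat, and at most 4 such repeats were made. By these methods the groups share isolations. Whether samples with the same number in both groups share an isolation is not stated. The main fit therefore took the samples as unpaired, and a fit with the sample number as a block is given near the end. The comparison asks how the transcripts of stretched AFCs differ between the control and the Piezo1 hairpin vector.

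Cholesterol is made from acetyl-CoA through mevalonate, isoprenoid diphosphates, squalene and lanosterol. The enzymes of this chain are known as targets of SREBP2, a transcription factor that is held in the endoplasmic reticulum by Scap and the Insig proteins while sterols are abundant and is released when they run low, so the enzyme transcripts usually rise and fall together. Fibroblast-like cells such as AFCs can both make cholesterol and take it up from lipoproteins.

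Values are TPM, a level scaled to transcript length and to the sample total, so levels can be compared between genes. The sequencing depth is unknown, because TPM has the same sum in every sample. Fold changes are differences of log2(TPM + 1), labelled Lv-Piezo1 minus labelled Lv-Ctrl, fitted with limma over 13103 genes with a mean of at least 1 TPM. The word rose or fell is used of a gene whose Benjamini-Hochberg adjusted p was below 0.05 in that fit, and a gene is said to be called when its log2 fold change was also at least 1 in size. Piezo1 itself went against the label, at 30.1 ± 2.67 TPM under the Lv-Ctrl label and 39.4 ± 1.75 TPM under the Lv-Piezo1 label (SD, n = 4 each, adjusted p = 8.6e-04), so all directions here follow the labels only. The median log2 fold change of the tested genes was 0.14 on the deposited values and -0.0052 after median-ratio scaling of the samples, and mitochondrially encoded transcripts held 7.03% to 7.90% of TPM under the control label and 6.05% to 6.53% under the Piezo1 label. The changes of the 7 enzymes are therefore also given after median-ratio scaling.

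The 7 enzymes did not move together. Sqle and Dhcr7 rose, Cyp51 fell, and Hmgcs1, Idi1, Fdft1 and Lss did not pass the test. None of the 7 was called with the fold threshold (the count was 0), against 7.67% of all tested genes (4.91% higher and 2.76% lower). Of all tested genes, 58.2% passed the adjusted p alone, 41.9% as higher and 16.3% as lower, and among the enzymes 3 of 7 passed, 2 higher and 1 lower, which is near that background. The groups did not overlap for 3 of the 7 enzymes and for 54.2% of all tested genes. The median log2 fold change of the 7 enzymes was -0.01, against 0.14 for all tested genes.

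Transcript levels of the enzymes spanned a range from about 5 to about 33 TPM. Under the Lv-Ctrl label the order of the means was Cyp51 (33.2 TPM), Lss (27.0), Fdft1 (18.5), Sqle (12.5), Hmgcs1 (11.6), Dhcr7 (6.74) and Idi1 (5.22), and only the neighbours Sqle and Hmgcs1 had overlapping samples. Under the Lv-Piezo1 label Lss (29.9 TPM) stood above Cyp51 (21.5), followed by Fdft1 (18.3), Sqle (16.0), Hmgcs1 (10.4), Dhcr7 (9.08) and Idi1 (4.57), with no overlap between neighbours. The place of Cyp51 and Lss was thus exchanged, while the order of the other enzymes was the same. Summed over the 7 enzymes, the control-labelled samples held 111 to 120 TPM and the others 106 to 115 TPM, and these ranges overlapped.

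**Figure D1:**
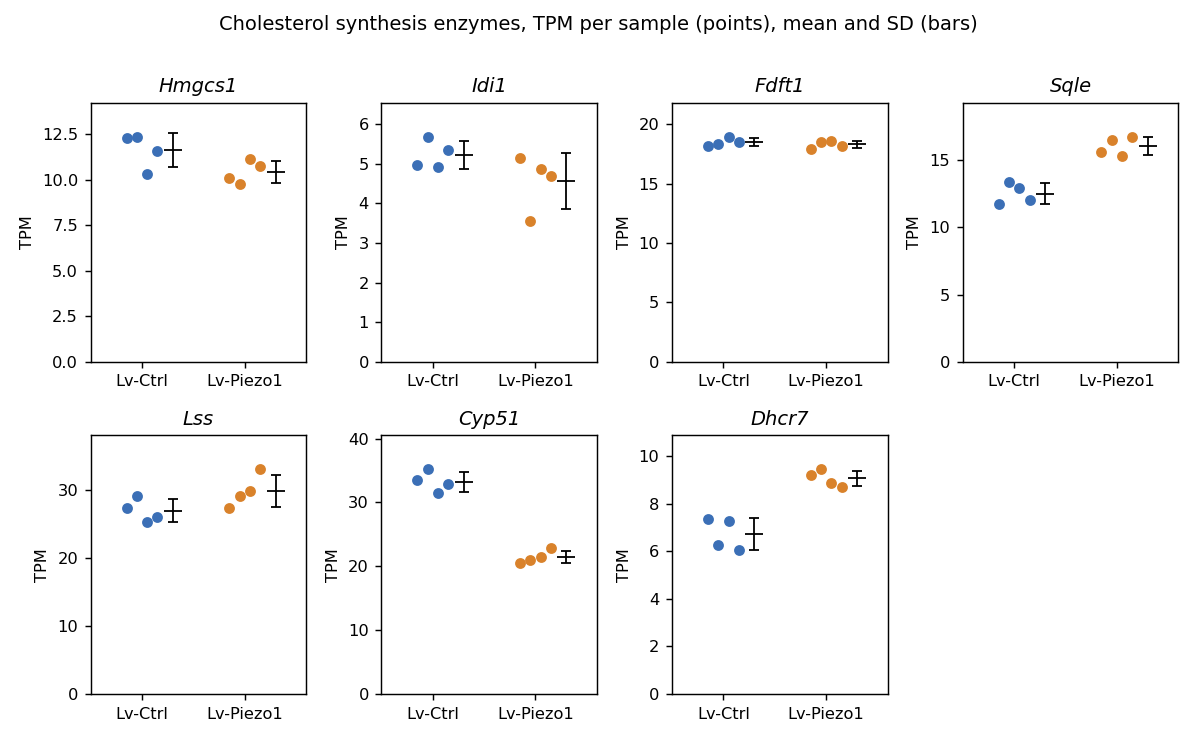
TPM of the 7 enzymes found by symbol in the 4 samples of each group (points, one panel per gene, each axis from 0), with the mean and SD beside them. Cyp51 lies at 31.5 to 35.2 TPM under the Lv-Ctrl label and at 20.6 to 22.9 TPM under the Lv-Piezo1 label, Sqle and Dhcr7 lie higher under the latter, and the points of the other 4 genes overlap.

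Cyp51 (ENSRNOG00000007234) encodes lanosterol demethylase, the enzyme that starts the conversion of lanosterol. Its TPM was 33.5, 35.2, 31.5 and 32.9 in replicates 1 to 4 labelled Lv-Ctrl and 20.6, 21.0, 21.4 and 22.9 in replicates 1 to 4 labelled Lv-Piezo1. The highest value of the second group was well under the lowest of the first, and the mean fell by 35.5%. The log2 fold change was -0.61 (standard error, SE, 0.05; 95% interval -0.72 to -0.50, adjusted p = 7.5e-06, exact two-sided permutation p = 0.029, the smallest that 70 relabelings of 4 against 4 allow). After median-ratio scaling it was -0.77, so Cyp51 fell further relative to the other genes.

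Sqle (ENSRNOG00000009550) encodes squalene epoxidase, which adds oxygen to squalene and is known as a rate-controlling step. It measured 11.7, 13.4, 12.9 and 12.0 TPM under the Lv-Ctrl label and 15.6, 16.5, 15.3 and 16.7 TPM under the Lv-Piezo1 label, with every value of the latter above every value of the former. On the log2 scale the fold change was 0.34 (SE 0.06, 95% interval 0.21 to 0.46, adjusted p = 7.1e-04) and 0.18 after median-ratio scaling (adjusted p = 0.027).

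Dhcr7 (ENSRNOG00000020776) encodes the reductase that forms cholesterol from its immediate precursor. Its values were 7.36, 6.27, 7.28 and 6.06 TPM under the Lv-Ctrl label and 9.21, 9.47, 8.90 and 8.72 TPM under the Lv-Piezo1 label, without overlap. Dhcr7 had a log2 fold change of 0.38 (SE 0.07, 95% interval 0.22 to 0.55, adjusted p = 0.0015). It was 0.24 after median-ratio scaling (adjusted p = 0.029), and after quantile normalization it was 0.20 and no longer passed (adjusted p = 0.074).

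Lss (ENSRNOG00000054549), the cyclase that folds oxidized squalene into lanosterol, had 27.5, 29.1, 25.4 and 26.1 TPM under the Lv-Ctrl label and 27.5, 29.2, 29.9 and 33.1 TPM under the Lv-Piezo1 label. Only replicate 4 of the latter stood clearly above the control range for this gene. The log2 fold change of 0.14 did not pass (95% interval -0.01 to 0.29, adjusted p = 0.090) and was -0.02 after median-ratio scaling. It reached an adjusted p of 0.048, with a log2 fold change of 0.18, when replicate 1 labelled Lv-Piezo1 was left out.

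Fdft1 (ENSRNOG00000021314), squalene synthase, commits farnesyl diphosphate to sterols. It had the smallest spread relative to its mean of the 7 enzymes, at 18.2, 18.3, 18.9 and 18.5 TPM under the control label and 17.9, 18.5, 18.6 and 18.1 TPM under the Piezo1 label. These ranges overlap, and the log2 fold change was -0.01 with a narrow 95% interval of -0.10 to 0.07 (adjusted p = 0.79). Relative to the other genes it was lower, at -0.17 after median-ratio scaling (adjusted p = 0.013).

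Hmgcs1 (ENSRNOG00000016552), the synthase that makes HMG-CoA, measured 12.3, 12.4, 10.3 and 11.6 TPM under the Lv-Ctrl label and 10.1, 9.76, 11.1 and 10.8 TPM under the Lv-Piezo1 label. Replicate 3 labelled Lv-Ctrl lay among the values of the other group. Hmgcs1 had a log2 fold change of -0.14 (95% interval -0.30 to 0.01, adjusted p = 0.11). Without replicate 3 labelled Lv-Ctrl it was -0.20 and passed (adjusted p = 0.019), as it did at -0.29 after median-ratio scaling (adjusted p = 0.0011).

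Idi1 (ENSRNOG00000016690), which interconverts the isoprenoid units isopentenyl and dimethylallyl diphosphate, had 4.96, 5.67, 4.92 and 5.33 TPM under the Lv-Ctrl label and 5.15, 3.55, 4.87 and 4.69 TPM under the Lv-Piezo1 label. Replicate 2 of the latter was the lowest of all 8 samples and widened the spread. Its log2 fold change was -0.17 (95% interval -0.40 to 0.06, adjusted p = 0.19), -0.07 without that replicate, and -0.30 after median-ratio scaling (adjusted p = 0.023).

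Fdps, which joins isoprenoid units into farnesyl diphosphate, could not be read unambiguously. One row (ENSRNOG00000043377) is described as farnesyl diphosphate synthase but carries the symbol Rusc1, and the RefSeq gene table of assembly GRCr8 lists Rusc1 and Fdps as neighbours on chromosome 2. That row is not counted among the 7 enzymes. It held 124, 123, 136 and 120 TPM under the Lv-Ctrl label and 137, 146, 145 and 134 TPM under the Lv-Piezo1 label, with overlapping ranges, a log2 fold change of 0.16 (adjusted p = 0.018) and of -0.0059 after median-ratio scaling. It no longer passed when replicate 4 labelled Lv-Ctrl or replicate 2 or 3 labelled Lv-Piezo1 was left out (log2 fold change 0.13 to 0.14, adjusted p = 0.051 to 0.053).

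Scaling changed how many enzymes passed. After median-ratio scaling 6 of the 7 enzymes had an adjusted p below 0.05 against 55.8% of all genes tested, with Sqle and Dhcr7 higher and Cyp51, Hmgcs1, Idi1 and Fdft1 lower. Among all tested genes, 27.9% were then higher and 27.9% lower at that threshold. The median log2 fold change of the 7 enzymes moved to -0.17, while that of all tested genes moved to -0.0052. Called genes were split into 644 higher and 361 lower on the deposited values and into 509 higher (3.89%) and 468 lower (3.57%) after scaling, 7.46% of genes in all, with 0 of the enzymes among them in both cases.

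Ratios between enzymes of the same sample do not depend on the scaling of that sample. From each enzyme to the next of the 7 in pathway order, 6 such ratios were formed, and they are given as a description. The ratio of Cyp51 to Lss was 1.22, 1.21, 1.24 and 1.26 in the samples labelled Lv-Ctrl and 0.748, 0.719, 0.716 and 0.690 in those labelled Lv-Piezo1. Its spread within a group was small beside the gap between the groups. Dhcr7 over Cyp51 went from 0.203 ± 0.0262 to 0.424 ± 0.0328 and Sqle over Fdft1 from 0.677 ± 0.0395 to 0.876 ± 0.0410 (SD, n = 4 each), both without overlap. The ratios of Idi1 to Hmgcs1, of Fdft1 to Idi1 and of Lss to Sqle overlapped between the groups. The 3 ratios without overlap each hold Sqle, Cyp51 or Dhcr7, the enzymes that passed the test, but Lss over Sqle holds Sqle and overlapped. Dhcr7 rose and Cyp51 fell, each without overlap, so their ratio could not overlap and only restates the single genes. A background share for such ratios was not computed.

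**Figure D2:**
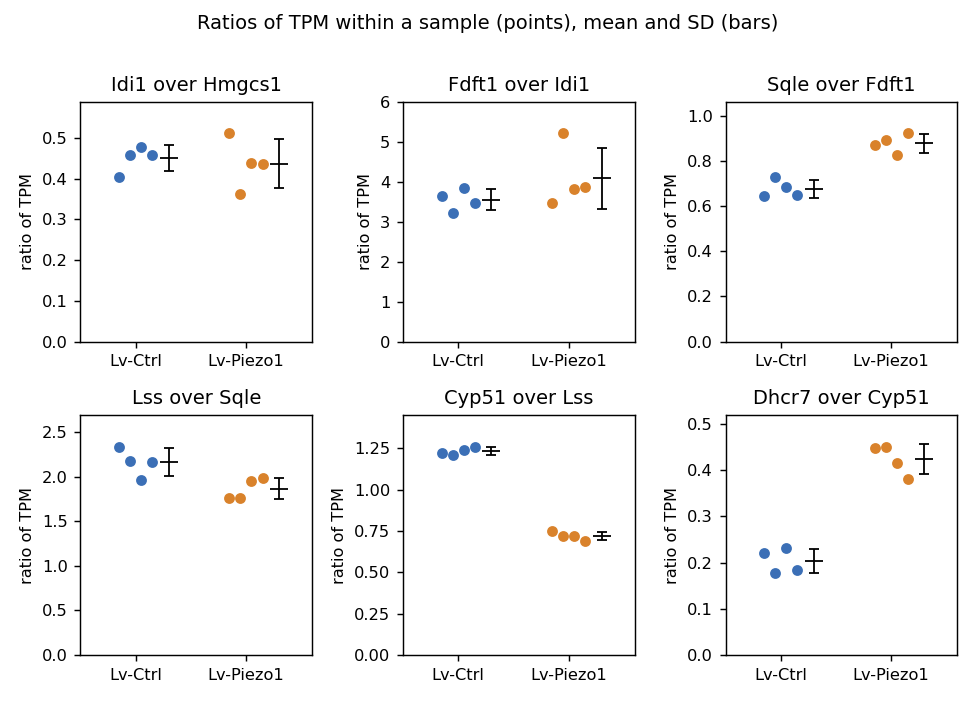
Ratio of the TPM of successive enzymes within each sample (points, 4 per group, each axis from 0), with the mean and SD beside them. Cyp51 over Lss lies at 1.21 to 1.26 under the Lv-Ctrl label and at 0.690 to 0.748 under the Lv-Piezo1 label, and the 3 ratios that do not overlap are Sqle over Fdft1, Cyp51 over Lss and Dhcr7 over Cyp51.

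RefSeq promoter sequences of build GRCr8 were given for 6 of the 8 listed enzymes, all but Sqle and Fdft1, and the 250 bases before the annotated start were searched on both strands. Searched were TCACNCCAC, the core of the sterol regulatory element bound by SREBP2, CCAAT, the box bound by NF-Y, and GGGCGG, the box bound by Sp1, which are known partners of SREBP2. The strict core TCACNCCAC was in 0 of the 6 windows and in 0.974% of all 33469 promoter windows. CCAAT was in 4 of the 6, those of Hmgcs1, Idi1, Fdps and Lss, against 34.0% of all windows, and GGGCGG was in 5 of the 6, all but Idi1, against 30.5%. The window of Cyp51, which fell, and that of Dhcr7, which rose, held GGGCGG and no CCAAT. Both are printed beside the windows of Lss and Hmgcs1, which did not pass the test, 5′ to 3′ on the strand of the gene, with capitals for CCAAT or GGGCGG or their reverse complements. They are Cyp51 (chr4:30991443-30991692, plus strand), Dhcr7 (chr1:208444184-208444433, plus strand), Lss (chr20:12118231-12118480, minus strand) and Hmgcs1 (chr2:53382054-53382303, plus strand).
Cyp51: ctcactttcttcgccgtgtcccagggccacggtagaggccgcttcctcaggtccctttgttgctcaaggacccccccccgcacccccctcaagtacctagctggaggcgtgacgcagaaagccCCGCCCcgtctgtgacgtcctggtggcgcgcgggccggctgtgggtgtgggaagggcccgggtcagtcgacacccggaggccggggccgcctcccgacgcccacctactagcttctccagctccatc
Dhcr7: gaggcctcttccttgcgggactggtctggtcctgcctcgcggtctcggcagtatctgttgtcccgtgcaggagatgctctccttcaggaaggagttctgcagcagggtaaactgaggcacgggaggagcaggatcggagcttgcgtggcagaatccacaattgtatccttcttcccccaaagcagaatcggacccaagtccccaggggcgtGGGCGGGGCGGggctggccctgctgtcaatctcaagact
Lss: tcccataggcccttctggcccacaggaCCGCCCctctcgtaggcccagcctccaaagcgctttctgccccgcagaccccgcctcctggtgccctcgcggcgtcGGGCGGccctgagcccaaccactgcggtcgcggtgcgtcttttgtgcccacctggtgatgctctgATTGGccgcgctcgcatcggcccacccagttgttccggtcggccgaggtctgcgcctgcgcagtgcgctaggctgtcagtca
Hmgcs1: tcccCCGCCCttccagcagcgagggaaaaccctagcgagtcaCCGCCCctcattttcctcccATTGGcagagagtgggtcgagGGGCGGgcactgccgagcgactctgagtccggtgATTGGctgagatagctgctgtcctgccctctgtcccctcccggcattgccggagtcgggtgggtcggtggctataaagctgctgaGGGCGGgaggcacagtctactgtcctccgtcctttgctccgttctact
In the Hmgcs1 window the 2 CCAAT boxes appear as ATTGG on the printed strand. A match of letters is no proof of binding, and its absence in this window says nothing of the factor.

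The other enzymes of the pathway also split in direction. Of 11 further enzymes listed, 10 were found by symbol and all 10 were tested, 4 rose, 3 fell and 3 did not pass, with a median log2 fold change of 0.12. After median-ratio scaling 3 were higher and 3 lower, with a median of -0.011. The shares of all tested genes were 41.9% higher and 16.3% lower on the deposited values and 27.9% each after scaling. Pmvk, which phosphorylates phosphomevalonate, fell the furthest. It measured 141, 141, 157 and 146 TPM under the Lv-Ctrl label and 74.2, 77.3, 71.4 and 68.0 TPM under the Lv-Piezo1 label, a log2 fold change of -0.998 (SE 0.05, adjusted p = 3.7e-07). This lies just short of the fold threshold, and Pmvk was called at -1.16 after median-ratio scaling. Msmo1, the sterol methyl oxidase that acts after Cyp51, measured 104 ± 1.94 and 58.1 ± 1.95 TPM (SD, n = 4 each) and fell by 0.83 on the log2 scale (adjusted p = 1.0e-07), or by 0.99 after median-ratio scaling. Ebp, a sterol isomerase, fell from 56.3 ± 4.55 to 44.2 ± 3.79 TPM (SD, n = 4 each, log2 fold change -0.34, adjusted p = 0.0032, and -0.50 after median-ratio scaling).

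The enzymes that rose were Mvk, Mvd, Hsd17b7 and Sc5d. Mvk, mevalonate kinase, rose from 13.1 ± 0.790 to 17.5 ± 0.279 TPM, a log2 fold change of 0.39 (adjusted p = 1.5e-04). Mvd, which decarboxylates mevalonate diphosphate, rose from 14.5 ± 0.488 to 19.6 ± 0.650 TPM (SD, n = 4 each), by 0.41 on the log2 scale (adjusted p = 5.4e-05). After median-ratio scaling the values were 0.24 for Mvk and 0.25 for Mvd, and both still passed. Mvk and Mvd flank Pmvk in the pathway, and the ratio of Pmvk to Mvk went from 11.2 ± 0.558 to 4.15 ± 0.169 (SD, n = 4 each). Pmvk fell and Mvk rose, each without overlap, so this ratio could not overlap and only restates the single genes. Hsd17b7, a sterol ketone reductase of low level, rose from 2.46 ± 0.684 to 4.12 ± 0.628 TPM (adjusted p = 0.010), and Sc5d, sterol desaturase, from 27.4 ± 3.23 to 34.0 ± 2.29 TPM (SD, n = 4 each, adjusted p = 0.013). After quantile normalization neither Hsd17b7 (adjusted p = 0.061) nor Sc5d (adjusted p = 0.061) passed, and Sc5d did not pass after median-ratio scaling either (adjusted p = 0.079).

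The log2 fold changes of Acat2 (0.03), Tm7sf2 (0.16) and Nsdhl (0.09) did not pass. Lbr was not found by symbol, and the row described as lamin B receptor had a log2 fold change of 0.08 (adjusted p = 0.56). Over these 17 enzymes found by symbol, 6 rose, 4 fell and 7 did not pass, with a median log2 fold change of 0.09. After median-ratio scaling 5 were higher and 7 lower, with a median of -0.054. The shares of all tested genes were 41.9% higher and 16.3% lower before that scaling and 27.9% each after it. Their summed level was 508 ± 5.01 TPM under the Lv-Ctrl label and 391 ± 2.59 TPM under the Lv-Piezo1 label (SD, n = 4 each), a drop carried mainly by Pmvk and Msmo1.

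**Figure D3:**
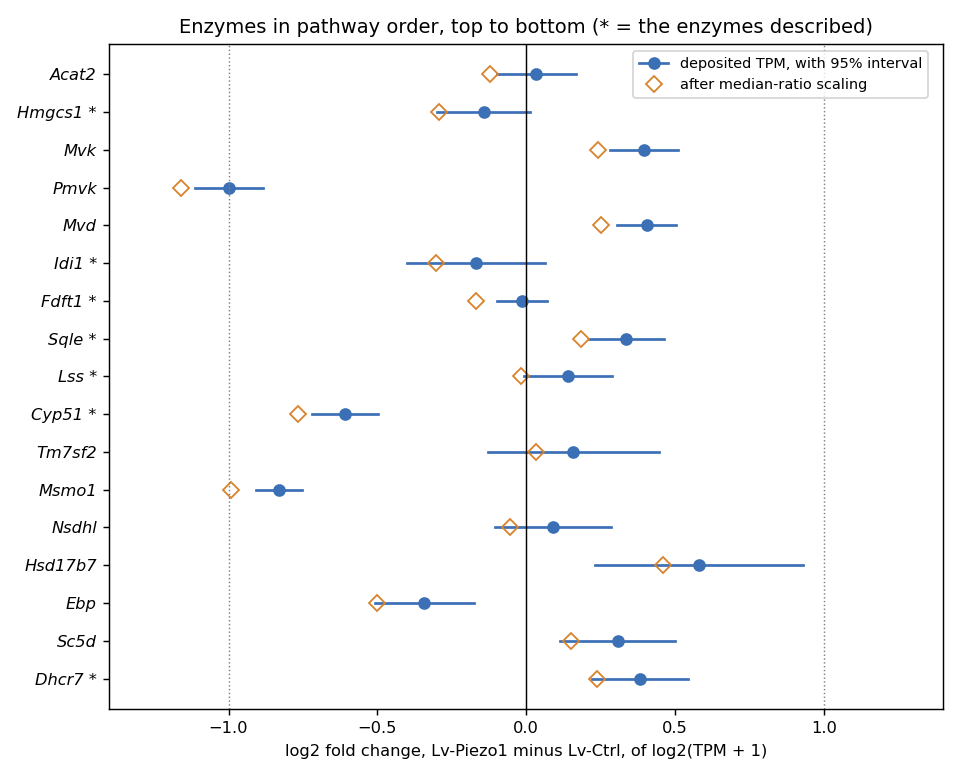
Log2 fold change of log2(TPM + 1), labelled Lv-Piezo1 minus labelled Lv-Ctrl, for 17 enzymes in approximate pathway order, on the deposited values (filled circles with 95% intervals) and after median-ratio scaling (open diamonds). Dotted lines mark a log2 fold change of 1 in either direction, enzymes that fell and enzymes that rose are interspersed along the pathway, and Pmvk at -0.998 and Msmo1 at -0.83 lie farthest from 0.

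The machinery that controls the pathway also moved in both directions. Of 10 genes listed, 3 rose, 3 fell and 4 did not pass, with a median log2 fold change of -0.04. After median-ratio scaling 2 were higher and 6 lower, with a median of -0.20. Of all tested genes 41.9% rose and 16.3% fell, or 27.9% each after scaling, and 7.67% were called. Insig1, the sterol-sensitive anchor of Scap and itself a classical SREBP2 target, was the only called gene of this list. Its TPM was 146, 146, 133 and 138 under the Lv-Ctrl label and 53.3, 51.4, 55.5 and 56.5 under the Lv-Piezo1 label, far from overlap. Insig1 had a log2 fold change of -1.36 (SE 0.04, adjusted p = 2.2e-08) and -1.52 after median-ratio scaling. Scap, which escorts SREBP2, rose from 18.6 ± 0.670 to 23.3 ± 0.610 TPM (SD, n = 4 each), by 0.31 on the log2 scale (adjusted p = 2.1e-04) and by 0.15 after median-ratio scaling. Mbtps2, a protease that releases SREBP2, had 9.73 ± 1.51 and 7.68 ± 1.31 TPM (SD, n = 4 each, adjusted p = 0.075), and passed as lower after median-ratio scaling (adjusted p = 0.0096) and without replicate 3 labelled Lv-Ctrl (adjusted p = 0.017) or replicate 4 labelled Lv-Piezo1 (adjusted p = 0.030). Insig2 and Srebf2 were chosen after their values were seen. Insig2 fell from 21.6 ± 1.52 to 17.3 ± 0.766 TPM (adjusted p = 0.0018), and Srebf2, which encodes SREBP2, rose from 27.1 ± 1.52 to 31.3 ± 1.35 TPM (SD, n = 4 each, adjusted p = 0.0072) but did not pass after median-ratio scaling (adjusted p = 0.30).

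Sterol-regulated genes outside the enzyme chain were higher or did not pass on the deposited values. Of 6 listed, 5 were found and 4 tested, and 2 rose while 0 fell, with a median log2 fold change of 0.06. After median-ratio scaling 1 was higher and 2 were lower, and the 2 lower genes are not named here. Of all tested genes 41.9% rose and 16.3% fell, or 27.9% each after scaling. Stard4, a carrier of cholesterol between membranes, was called, with 4.11, 1.94, 3.50 and 2.43 TPM against 7.01, 7.58, 6.36 and 10.3 TPM and a log2 fold change of 1.16 (SE 0.19, adjusted p = 7.7e-04). Tmem97 had a log2 fold change of 0.15 (adjusted p = 0.013) and of -0.01 after median-ratio scaling, which did not pass.

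**Figure D4:**
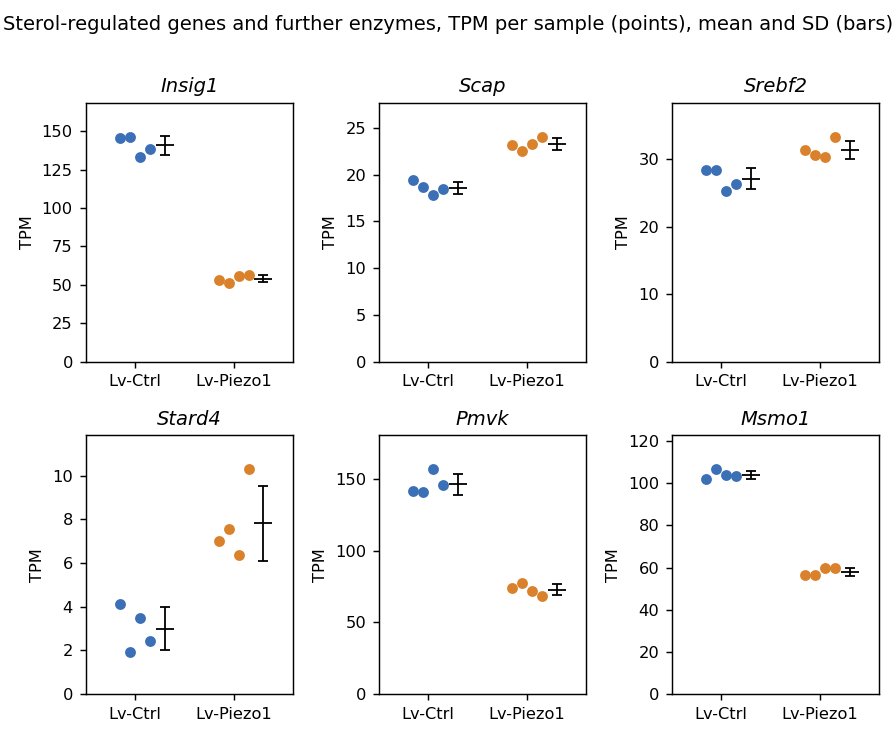
TPM per sample (points, 4 per group, each axis from 0), with mean and SD, of control genes, sterol-regulated genes and further enzymes. Insig1 lies at 133 to 146 TPM under the Lv-Ctrl label and at 51.4 to 56.5 TPM under the Lv-Piezo1 label, Pmvk and Msmo1 also lie lower under the latter, and Scap, Srebf2 and Stard4 lie higher.

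Among genes that move, store or modify cholesterol, 4 were called, namely Apoe, Abcg1, Scarb1 and Cyp7b1. These were 2 higher and 1 lower of the 10 genes of the LXR, efflux and uptake list, and 1 lower of the 8 tested for storage and oxysterols. Of all tested genes 4.91% were called higher and 2.76% lower. At the adjusted p alone 41.9% rose and 16.3% fell, or 27.9% each after median-ratio scaling. Of the 10 genes of the LXR, efflux and uptake list 5 rose and 2 fell, with a median log2 fold change of 0.04, whereas after median-ratio scaling 2 were higher and 4 lower, with a median of -0.11. Apoe, an apolipoprotein that carries cholesterol, fell from 203 ± 7.12 to 21.7 ± 1.55 TPM (log2 fold change -3.17, adjusted p = 3.6e-10). Abcg1, a cholesterol exporter, rose from 0.288 ± 0.065 to 3.91 ± 0.541 TPM (log2 fold change 1.92, adjusted p = 1.0e-06, and 3.38 with a pseudocount of 0.1), and Scarb1, a lipoprotein receptor, from 12.8 ± 0.676 to 29.2 ± 1.01 TPM (SD, n = 4 each, log2 fold change 1.14, adjusted p = 1.3e-07). Abcg1 had a control mean under the limit of 1 TPM and was tested only through its level under the Lv-Piezo1 label. It could therefore enter only as a gene that rose. After median-ratio scaling the log2 fold change of Scarb1 was 0.98, below the fold threshold. In the storage and oxysterol list 8 of 9 genes were tested, of which 4 rose and 1 fell, or 3 and 2 after median-ratio scaling. Cyp7b1, an oxysterol hydroxylase, fell from 26.1 ± 1.35 to 6.54 ± 0.491 TPM (log2 fold change -1.84, adjusted p = 2.7e-08). Ch25h and Cyp27a1, which make oxysterols, rose by 0.90 (adjusted p = 4.5e-04) and 0.61 (adjusted p = 1.7e-04) on the log2 scale, and with a pseudocount of 0.1 Ch25h, at 1.33, passed the fold threshold.

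Fatty acid synthesis genes, the targets of the related factor SREBP1, were mostly higher under the Lv-Piezo1 label. Of 11 tested genes 9 rose, 1 fell and 1 did not pass, with a median log2 fold change of 0.53 on the deposited values and 0.37 after median-ratio scaling. Of all tested genes 41.9% rose and 16.3% fell, with a median of 0.14. After scaling 9 of the list were higher and 1 lower, against 27.9% each of all tested genes. Me1, malic enzyme, rose from 28.2 ± 1.80 to 47.2 ± 2.66 TPM (log2 fold change 0.72, adjusted p = 6.6e-06), and the desaturases Fads1 and Fads2 each rose by 0.60 on the log2 scale (adjusted p = 9.4e-07 and 9.5e-05). Acss2, which makes acetyl-CoA from acetate, was the gene that fell, from 22.5 ± 0.259 to 16.9 ± 0.388 TPM (SD, n = 4 each, adjusted p = 2.2e-05), and was named after its value was seen. The difference between this list and the cholesterol enzymes was not tested.

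**Figure D5:**
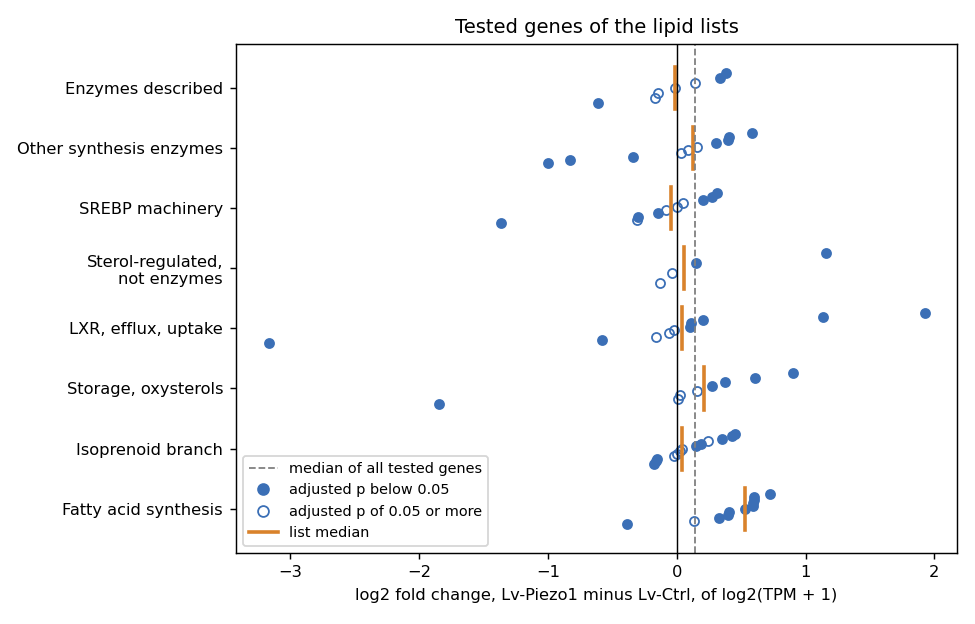
Log2 fold change of log2(TPM + 1), labelled Lv-Piezo1 minus labelled Lv-Ctrl, of each tested gene (points, filled where the adjusted p was below 0.05) in 8 lipid lists, with the list median (orange bar) and the median of all tested genes (dashed line, 0.14). The cholesterol enzymes scatter on both sides of 0 with a median of -0.01, the fatty acid list has a median of 0.53, and Apoe at -3.17 and Abcg1 at 1.92 are the outermost points.

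The cells were checked against marker genes. All 11 annulus fibrosus markers were found and 10 were tested, with summed levels of 7241 to 8138 TPM under the Lv-Ctrl label and 11063 to 11828 TPM under the Lv-Piezo1 label, while Tnmd, a tendon marker, was close to 0. Most of that sum was the collagens Col1a1 and Col1a2. Of the 10 tested, 6 rose and 3 fell, against 41.9% and 16.3% of all tested genes. Values in brackets are means under the control and then the Piezo1 label. Those that fell were Dcn (1456 and 519 TPM), Fmod (68.4 and 34.0 TPM) and Mkx (25.4 and 14.6 TPM). Of the 6 endothelial markers found, all had means under 1 TPM, and their sums were 0.34 to 0.61 TPM and 0.39 to 0.62 TPM. Macrophage markers summed to 21.3 to 23.3 TPM and to 37.1 to 41.9 TPM, with 2 of 8 tested and with Adgre1 and C1qa listed at 0 everywhere. Both tested markers rose, Cd68 (0.955 and 12.3 TPM) and Cd14 (20.9 and 25.8 TPM), but Cd14 did not pass after median-ratio scaling. Adipocyte markers summed to 6.71 to 8.84 TPM and to 12.7 to 14.2 TPM, with Adipoq, Plin1, Cidec and Lep averaging under 1 TPM over the 8 samples. Of the adipocyte markers tested, Lpl rose (0.60 and 11.0 TPM) while Cfd (4.06 and 0.79 TPM) and Pparg (1.87 and 1.22 TPM) fell. Lpl, Cd68 and the annulus fibrosus marker Comp reached the limit of 1 TPM only through their level under the Lv-Piezo1 label. Cfd reached it only through its level under the Lv-Ctrl label. The sum of the mural cell markers was 434 to 466 TPM under the control label and 251 to 268 TPM under the Piezo1 label, but only Kcnj8 (326 and 39.1 TPM) and Abcc9 (73.7 and 12.3 TPM) fell, and the other 4 tested markers rose, among them Myh11 (1.80 and 47.9 TPM) and Mcam (7.17 and 62.2 TPM). Chondrocyte-like markers summed to 32.9 to 39.9 TPM and to 51.3 to 54.6 TPM, and the nucleus pulposus list to 76.9 to 90.1 TPM and to 70.4 to 78.6 TPM. Within the nucleus pulposus list Cd24 rose (3.79 and 21.9 TPM), Foxf1, most of the sum, fell (77.6 and 50.1 TPM) and Krt8 did not pass. The ranges of 5 of these 7 sums did not overlap between the groups, and taken singly 54.2% of all tested genes did not overlap either. The part of these markers in the enzyme results was not tested. In bulk RNA, fewer cells of a type and less RNA per cell cannot be told apart.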

How the data were processed

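RNA-seq of 8 samples of rat AFCs was used, 4 labelled Lv-Ctrl and 4 labelled Lv-Piezo1, matched to the columns through the sample labels. The authors filtered the reads for quality, aligned them with HISAT2 and assembled transcripts with StringTie, and the deposited values are TPM, rounded to 2 decimals. The versions of these tools and the annotation are not given in the sources used here. The submitters' processing notes name mm10, a mouse build, and DESeq2, whereas 30560 of the 31699 rows carry rat Ensembl identifiers and 0 carry mouse ones, and the study's methods name a rat reference, so the build is uncertain. These methods also name FPKM.

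TPM is no count and keeps no depth, so no count model was fitted and precision rests on the spread of the 4 samples. Values were tested as log2(TPM + 1) with limma 3.58.1 in R 4.3.3 (two-sided, moderation with a trend, Benjamini-Hochberg adjustment over 13103 genes whose average TPM reached 1), which understates changes of genes with low TPM. Single genes were also given an exact two-sided permutation test of the mean TPM. The fit was tested on simulated data. Members and lists were chosen with earlier results of these data known. Some listed genes are not reported here. Named are the enzymes, the further enzymes, in each other list the called genes or up to 3 of the largest changes, and Piezo1. Also named are the 5 genes most like Cyp51, which changed most among the 7 enzymes found by symbol. The columns of group means, which are the authors' averages, were not used.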

Additional observations from a re-analysis of the deposited data

Results flagged for a closer look

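Among 152 groups of 4 samples, 2 for each tested gene of the lipid lists, Piezo1 and the entries named Rusc1 and described as lamin B receptor, 4 held a sample whose gap to the nearest of the others exceeded Dixon's critical value, and chance alone flags about 1 in 20. None of the 14 groups of the cholesterol synthesis enzymes found by symbol was among them (the count was 0). Tm7sf2 was at 5.25 TPM in replicate 1 labelled Lv-Piezo1, against 3.29 to 3.53 TPM in the other 3. Mvd was at 13.8 TPM in replicate 4 labelled Lv-Ctrl, where the others lay at 14.77 to 14.78 TPM. Nus1 was at 28.98 TPM in replicate 3 labelled Lv-Ctrl, against 32.6 to 32.8 TPM. Abcg1 was at 0.19 TPM in the same sample, against 0.32 TPM in each of the others, a level at which the rounding to 2 decimals is a visible part of the value.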

How the results depend on the processing

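Cyp51 and Sqle kept their direction and an adjusted p below 0.05 from limma in each of the 8 alternative fits and in the 8 fits that each left out 1 sample, and Dhcr7 did so except after quantile normalization (log2 fold change 0.20). After median-ratio scaling 6 of the 7 enzymes passed, 4 of them lower, with a median log2 fold change of -0.17. Hmgcs1 (-0.29), Idi1 (-0.30) and Fdft1 (-0.17) then passed, and Lss reversed to -0.016. After quantile normalization 5 passed, 1 higher and 4 lower, with a median of -0.17, and Hmgcs1 (-0.33), Idi1 (-0.37) and Fdft1 (-0.17) passed. Both scalings set the median gene close to 0. The entry named Rusc1 reversed to -0.0059 and Tmem97 to -0.013 after median-ratio scaling, Acat2 to -0.12 under both scalings, Nsdhl to -0.054 and -0.10, the entry described as lamin B receptor to -0.068 and -0.12, and Tm7sf2 to -0.062 after quantile normalization, none of them past the threshold. With a mean TPM of at least 5 as the limit, 628 genes were called instead of 1005 and Idi1 was no longer tested, so that the median of the remaining enzymes was 0.064. Leaving out 1 sample at a time, 1 to 2 enzymes were lower, Hmgcs1 ranged from -0.20 to -0.11, Lss from 0.092 to 0.18 and the lamin B receptor entry from -0.019 to 0.13. Samples of the same number shared no visible deviation, with correlations of -0.06 to -0.01 between their deviations from the group means. This cannot show whether they share an isolation. With the replicate block 3 enzymes passed, 1004 genes were called and Mbtps2 passed (adjusted p = 0.037). By contrast, 2 genes of the LXR list and Nus1 no longer passed (adjusted p = 0.067 to 0.083), leaving 3 and 4 genes that rose in the LXR and isoprenoid lists. None of the 7 enzymes was called with the fold threshold in any of these 16 fits, whereas Pmvk, at -0.998 on the deposited values, lay past it in several, at -1.01 with a pseudocount of 0.1 and at -1.06 after quantile normalization, and ranged from -1.03 to -0.96 with 1 sample left out.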

Other observations

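Cyp51 had the largest change of the 7 enzymes found by symbol, though the further enzymes Pmvk (-0.998) and Msmo1 (-0.83) changed more. The gene profiles most like that of Cyp51 were those of Atp9a, C3, Tmlhe, Mfsd6 and Ppic. Likeness was taken as the root mean square difference of centred log2(TPM + 1) over the 8 samples (0.028 to 0.040 among 11328 genes with a symbol). Atp9a, a phospholipid flippase, had means of 97.1 and 61.7 TPM, C3, a complement component, 159 and 105 TPM, and Ppic, a prolyl isomerase, 467 and 309 TPM, each under the Lv-Ctrl and then the Lv-Piezo1 label. None of the 5 is an enzyme of the pathway. The 7 enzymes were themselves left out of this comparison. The measure also favours genes with a change of similar size, and the 5 had log2 fold changes of -0.65 to -0.59. The absence of pathway enzymes among them therefore says nothing of shared control.

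The branch that uses isoprenoids for other products than sterols was also split. Of 13 tested genes 5 rose, 3 fell and 5 did not pass, with a median log2 fold change of 0.04. After median-ratio scaling 2 were higher and 3 lower, with a median of -0.10. Of all tested genes 41.9% rose and 16.3% fell, or 27.9% each after scaling. Icmt, which methylates prenylated proteins, rose from 22.0 ± 1.27 to 30.4 ± 2.63 TPM (adjusted p = 3.9e-04), Rabggta, a subunit of the Rab prenyltransferase, from 15.2 ± 0.748 to 20.7 ± 0.660 TPM (adjusted p = 6.2e-05), and Pdss2, of ubiquinone synthesis, from 8.38 ± 0.607 to 11.0 ± 0.965 TPM (SD, n = 4 each, adjusted p = 0.0032). Pdss2 did not pass after median-ratio scaling (adjusted p = 0.068).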
